A study of Homo sapiens with 6 samples.

Results

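Human genes for amino acid carriers were taken by their family names from RNA sequencing of HepG2, an established hepatocellular carcinoma line. The families are SLC1, SLC3, SLC6, SLC7, SLC36, SLC38 and SLC43, and the name pattern was applied to the protein-coding rows of the authors' matrix of log2 FPKM. SLC7A11, the cystine carrier xCT, was left out by the rule. The rule took 38 of the 18404 genes in that matrix. It uses names and no difference between treatments, but the matrix holds only genes counted at least 1 time in every library. The families were chosen with earlier results of these data known. The cells, adherent in DMEM, had been exposed for 48 h to 10 µM oridonin, a diterpenoid of the plant Isodon rubescens, or to 0.1% DMSO, with 3 libraries for each treatment and 6 in all. The labels do not state whether the oridonin wells also held DMSO. They describe samples grown in multi-well plates and do not say whether they were separate cultures, so the p-values measure only the spread between these libraries, which may be technical.

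Amino acid carriers of the cell surface differ in what they move and in what drives them. Uniporters let large neutral amino acids run down their gradient, sodium-coupled carriers pull small neutral amino acids and glutamine inwards, and exchangers such as LAT1 then trade this glutamine for leucine and other essential amino acids. LAT1 and its relatives are light chains that reach the membrane only when joined to a heavy chain, 4F2hc, encoded by SLC3A2. Many of these genes, among them SLC7A5, SLC7A1, SLC3A2 and SLC38A2, are known targets of ATF4, the transcription factor that answers amino acid shortage, and the liver uses them to feed urea, glutathione and plasma protein synthesis.

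The label of plasma membrane amino acid carriers held for most of the genes, with exceptions. SLC7A6OS overlaps SLC7A6 and encodes no carrier, which leaves 37 carriers. Of these, SLC38A7, SLC38A9, SLC36A1 and SLC36A4 belong largely to lysosomes or other inner membranes. SLC6A2 carries noradrenaline, SLC6A4 serotonin and SLC43A3 purine bases, which makes 7 carriers off the plasma membrane or of other cargo. This count leaves out SLC6A8, SLC6A6, SLC6A11 and SLC6A12, which carry creatine, taurine, GABA or betaine, and the orphan SLC6A16. Another 21 protein-coding genes of the families were not in the matrix. None of these exceeded 9 counts in a library, a value reached by SLC7A8, the light chain LAT2, and 6 had no count in any library. SLC3A1, the heavy chain rBAT of kidney and gut, had 0 to 4 counts.

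The libraries held 22250202 to 30739574 counts. Hepatocyte markers were present, with none of the 16 at 0, and summed to 32459 to 35442 CPM (counts scaled to library size) in DMSO and 20123 to 22250 in oridonin. The 27 gut epithelial markers summed to 23.0 to 30.7 CPM in DMSO and 41.4 to 54.2 in oridonin, with 17 of them under 1 CPM in every library. The 21 B and plasma cell markers summed to 13.7 to 32.4 and 56.7 to 116 CPM, with 2 at 0. The 17 T cell, myeloid and stromal markers summed to 691 to 727 and 438 to 468 CPM, nearly all of it from LYZ, which had 677, 711 and 695 CPM in DMSO and 450, 432 and 418 in oridonin. The 16 kidney and neuron markers summed to 3.76 to 4.83 and 1.67 to 2.54 CPM, with 5 at 0. FCGBP gave much of the gut sum, with 17.4 to 17.6 CPM in DMSO and 20.3 to 22.5 in oridonin. In the B and plasma cell list CD79A had 1.16 to 1.46 and 15.4 to 20.7 CPM, while MS4A1 had 0. IGHA1 varied within each treatment, at 0.0456, 3.9 and 5.7 CPM in DMSO and 7.97, 30.9 and 27.5 in oridonin. In the hepatocyte list APOA2, FGA and FGB went against the sum, and HNF4A overlapped between treatments. The sums moved with the treatment, though not all genes of a list did. Their part in the results that follow was not tested.

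More of the carrier genes were lower than higher after oridonin. Of the 37 family genes that passed the filter on low counts, 16 were called lower and 8 higher at a Benjamini-Hochberg adjusted p under 0.05 (edgeR's quasi-likelihood test), 24 in all or 64.9%. Over all 15116 genes tested, 41.9% were called, 21.3% lower and 20.6% higher. Thus the share called lower stood above that of all genes and the share called higher stood near it. SLC38A8, an SLC38 member of the eye and brain, had 1 to 6 counts and was not tested. The median log2 fold change was -0.23 over the 37 genes and 0.01 over all genes tested, and the median size regardless of sign was 0.39 against 0.22. All values of the 3 libraries of a treatment lay beyond those of the other treatment in 25 of the 37 genes, and in 51.6% of all genes tested. In bulk RNA, less transcript in each cell and fewer cells that carry it cannot be told apart.

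The 16 calls in the lower direction held up better than the 8 in the higher direction. DESeq2, limma on log2 FPKM, and an adjusted p under 0.01 with edgeR each kept 5 higher calls and 15, 14 and 15 lower calls. The 3 genes that dropped out of the higher calls each time were SLC7A6, SLC38A6 and SLC7A7, and the lower calls lost were SLC38A4 and, with limma alone, SLC1A2. Scaling by total counts alone left 8 higher and 15 lower, although it moved the share of higher genes among all called genes from 49.2% to 65.5%. Of the 24 called genes, 19 kept their direction and call in all 11 other fits.

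**Figure D1:**
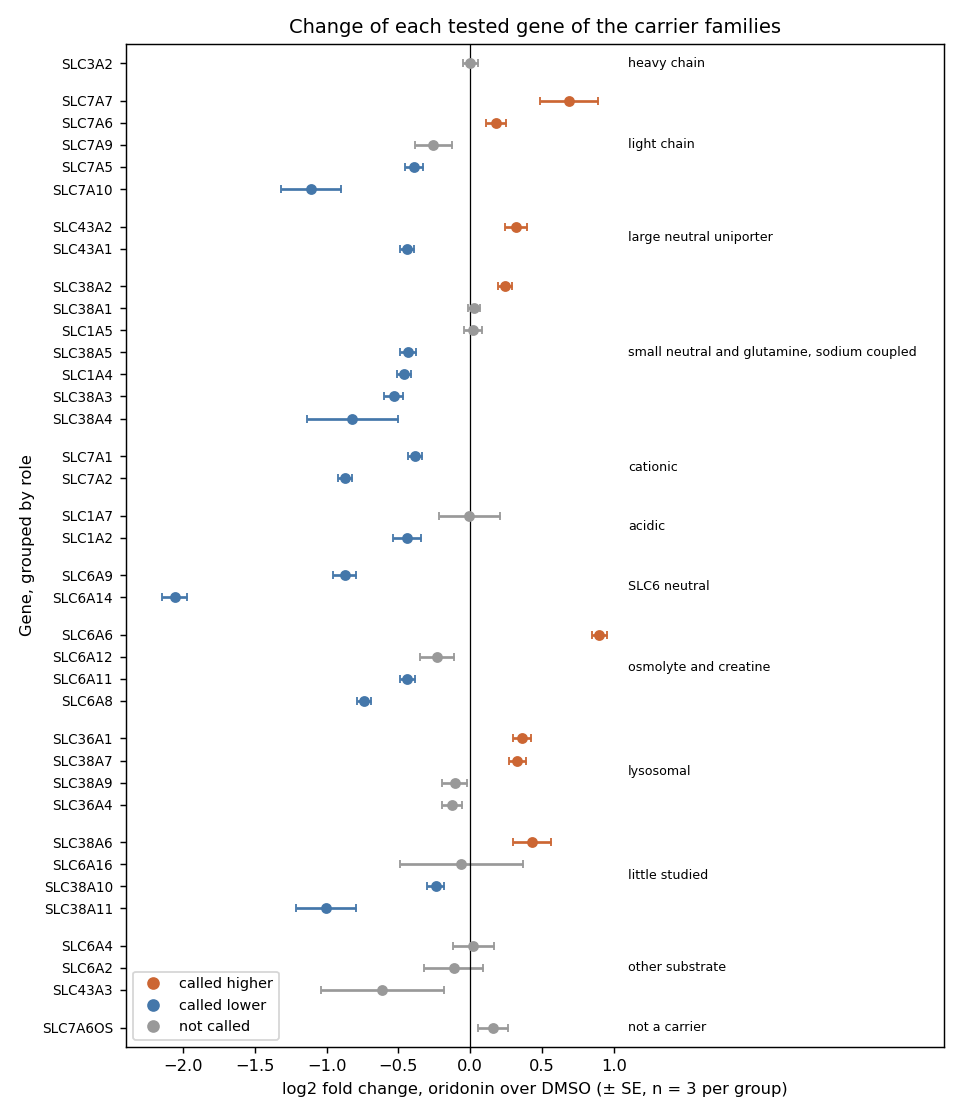
Log2 fold change of each of the 37 tested genes (x axis, oridonin over DMSO, bars ± SE, n = 3 libraries per treatment), grouped by role; blue genes were called lower, orange higher and grey neither. SLC6A14 lies farthest left at -2.06 and SLC6A6 farthest right at 0.90, and SLC3A2 lies at the zero line.

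**Figure D2:**
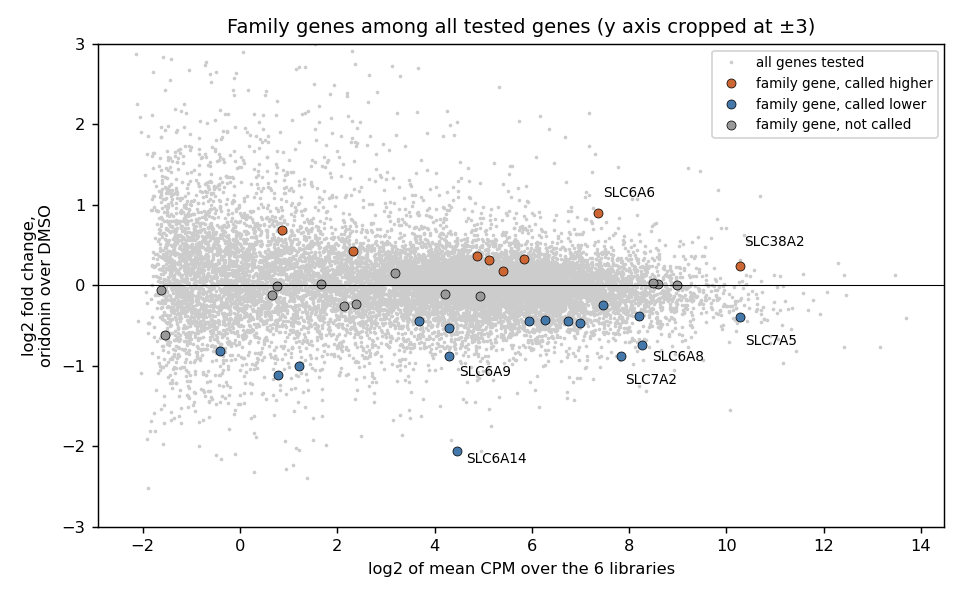
Log2 fold change (y axis) against log2 of the mean CPM (x axis) for the 15116 tested genes (light grey dots) and the 37 family genes (large points, coloured by call). The y axis stops at 3 in either direction, which leaves 20 genes outside it; among genes of its level SLC6A14 lies near the lower edge of the cloud.

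Promoters were read from the RefSeq table on GRCh38.p14, from 250 bases before to 50 bases after the first listed start, and 31 of the 38 genes had an entry. They were searched for short letter patterns of ATF4, MYC and NRF2, 3 regulators known to act on amino acid uptake. Sequence outside these windows was not searched, so a gene without a match may hold sites elsewhere. The motifs, searched on both strands, were TGATGNAAN, the core of the amino acid response element bound by ATF4 with a C/EBP partner; CACGTG, the E-box bound by MYC and related factors; and TGACNNNGC, the core of the antioxidant response element bound by NRF2. In the 30 carrier promoters, SLC7A6OS left out, TGATGNAAN stood in 3 (10%), against 1.68% of the 10810 promoters of tested genes. CACGTG stood in 6 (20%) against 10.1%, and TGACNNNGC in 5 (16.7%) against 15.4%. Over all 27305 promoters of this length the shares of the 3 motifs, in the same order, were 3.67%, 7.43% and 13.6%. The 30 carriers include SLC38A8, which was not tested. Among carriers called lower, 1 of 13 promoters held TGATGNAAN, 3 held CACGTG and 2 held TGACNNNGC. Among those called higher, 0, 1 and 2 of 7 did. These are counts of letters and no measure of binding.

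The windows of 30 bases around these matches are shown for up to 4 carriers called lower and 2 called higher, those with the smallest p among promoters that hold a motif, written in the direction of transcription with the motif in capitals; no match of one motif overlaps a match of another. The E-box windows belong to SLC43A1 at chr11:57515797-57515826, SLC38A5 at chrX:48470449-48470478, SLC7A5 at chr16:87869620-87869649 and SLC38A7 at chr16:58684739-58684768, all on the minus strand, and the first 3 genes were called lower and SLC38A7 higher. The E-box also stood in SLC1A7 and SLC6A16, which were not called and are not shown.
SLC43A1: cagcgggcgagtCACGTGcgcgtgaaactc
SLC38A5: tcctgtagcggaCACGTGgcttgcctggga
SLC7A5: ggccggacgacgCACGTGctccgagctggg
SLC38A7: gtgatgcatgctCACGTGtctccgcagccg

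The antioxidant response element core was found in SLC7A1 at chr13:29595754-29595783 and SLC7A5 at chr16:87869490-87869519, both called lower, and in SLC7A7 at chr14:22819860-22819889, called higher, all on the minus strand. It also stood in SLC7A6 (2 matches, called higher) and SLC3A2 (not called), whose windows for it are not shown.
SLC7A1: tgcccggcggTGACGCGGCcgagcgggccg
SLC7A5: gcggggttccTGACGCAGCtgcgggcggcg
SLC7A7: cctctgggtcTGACCAGGCagtcccagctc

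The amino acid response element core was found in 3 carriers, SLC7A1 at chr13:29595662-29595691 (minus strand), SLC38A1 at chr12:46266501-46266530 (minus strand) and SLC3A2 at chr11:62881719-62881748 (plus strand, with the motif on the other strand). SLC7A1 was called lower and the others were not called, and these last windows were added after the values were seen.
SLC7A1: ggcgcactgcTGATGAAACctggcgccgga
SLC38A1: cagacccgaaTGATGAAAAgggatcagcta
SLC3A2: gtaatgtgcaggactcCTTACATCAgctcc

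Per kilobase of gene length, a few carriers made up most of the summed FPKM of these families. The length is that given by the authors, and for SLC7A5 its 4745 bases equal all annotated exons of the gene together. A single transcript can be shorter, so levels compared between genes, their ratios and their shares depend on the annotation. Summed over the 37 carriers, FPKM (fragments scaled by gene length and depth) was 1041 ± 51.6 (SD, n = 3) in DMSO and 938 ± 25.7 in oridonin, and the ranges did not overlap. SLC7A5, SLC38A2, SLC1A5 and SLC3A2 held 65.2% ± 0.737 of this sum in DMSO and 69.2% ± 0.485 in oridonin. These 4 kept their order from the highest to the lowest level in both treatments, and in each treatment no neighbours among them overlapped. The share of SLC7A5 was 28.5% ± 0.947 in DMSO and 24.4% ± 1.34 in oridonin, while that of SLC38A2 was 16.4% ± 0.796 and 21.8% ± 1.43. Below them came SLC6A8 and then, in DMSO, SLC7A1, SLC7A2, SLC38A1, SLC43A1, SLC38A10, SLC38A5 and SLC1A4. SLC7A2 and SLC38A1 overlapped, as did SLC38A1 and SLC43A1, and SLC38A5 and SLC1A4. In oridonin SLC6A6 moved from rank 13 to rank 8, SLC7A2 from 7 to 11 and SLC6A14 from 15 to 23.

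**Figure D3:**
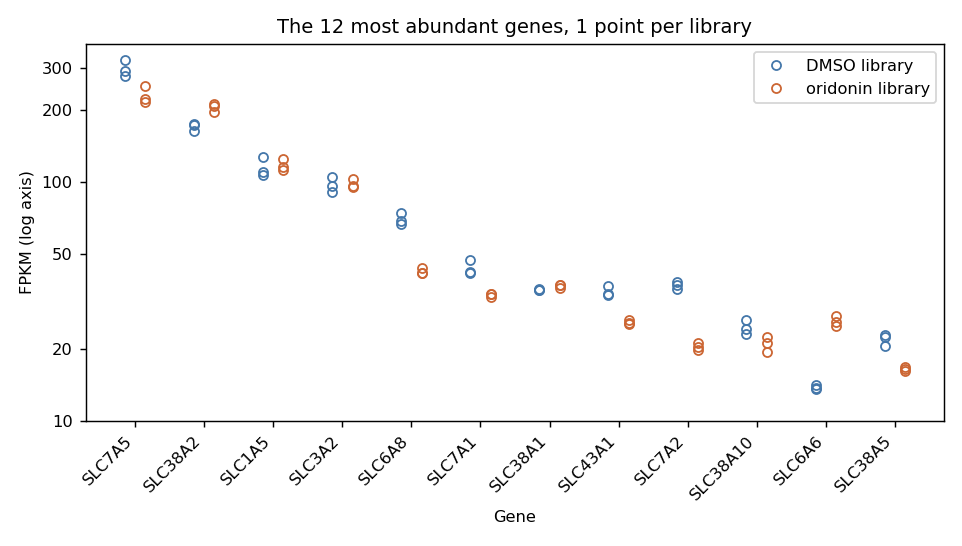
FPKM on a log axis for the 12 family genes with the highest mean level, with 1 open point per library (blue for DMSO, orange for oridonin). SLC7A5 is the highest gene in both treatments, SLC6A8 and SLC7A2 sit lower in oridonin, and SLC6A6 sits higher.

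The pair that forms LAT1 moved unequally: the light chain fell and the heavy chain was not called. SLC7A5, the light chain that exchanges glutamine for leucine and other large neutral amino acids (chromosome 16, 87830023 to 87869488, minus strand), had 1396, 1326 and 1526 CPM in DMSO and 1055, 1013 and 1174 in oridonin. Each oridonin library was below each DMSO library, and the fall was 0.39 ± 0.06 on the log2 scale (1.31-fold lower; edgeR adjusted p = 0.000114). SLC3A2 (chromosome 11, 62856102 to 62888875) had 476, 501 and 540 CPM in DMSO and 501, 490 and 526 in oridonin. The treatments overlapped, with a log2 fold change of -0.00 ± 0.05 (edgeR adjusted p = 0.998) that took either sign as scaling and libraries were varied. Per length, SLC7A5 stood 3.06 ± 0.159 times as high as SLC3A2 in DMSO and 2.34 ± 0.0958 times in oridonin. The ratios were 3.20, 2.89 and 3.07 in the DMSO libraries and 2.30, 2.27 and 2.45 in the oridonin libraries, without overlap. Pseudogenes of SLC7A5 were nearly silent: SLC7A5P1 had 0 to 6 counts and SLC7A5P2 had 0.

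The letters upstream of SLC7A5, the highest gene of the families, are given for the 250 bases before its listed start at chr16:87869508-87869757 on the minus strand, with the E-box in capitals. They are rich in G and C, which make up 79.6% of them.
SLC7A5: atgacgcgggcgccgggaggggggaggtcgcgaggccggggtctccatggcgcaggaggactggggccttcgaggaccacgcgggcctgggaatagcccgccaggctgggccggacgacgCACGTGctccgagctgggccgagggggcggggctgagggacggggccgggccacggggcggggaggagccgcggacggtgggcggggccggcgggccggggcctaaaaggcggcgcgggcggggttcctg

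**Figure D4:**
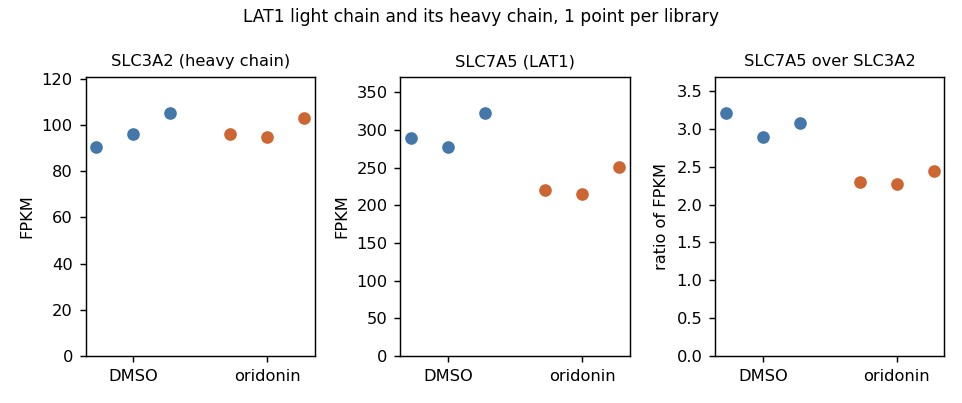
FPKM of the heavy chain SLC3A2, FPKM of the light chain SLC7A5, and their ratio, with 1 point per library (3 DMSO libraries in blue, 3 oridonin libraries in orange; all y axes start at 0). The SLC7A5 points and the ratios do not overlap between the treatments, and the SLC3A2 points do.

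The remaining light chains were scarce and went in both directions. LAT1 held 97.9% of the summed FPKM of the 4 light chains of 4F2hc in DMSO and 97.1% in oridonin, xCT left out. With xCT left out, SLC3A2 stood at 0.321 ± 0.0167 of the summed light chains in DMSO and 0.416 ± 0.0164 in oridonin. When SLC7A11, which had 16.5 FPKM in DMSO and 25.7 in oridonin, was counted in, these ratios were 0.304 ± 0.0152 and 0.375 ± 0.0115. The direction was thus kept with xCT in the sum.

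SLC7A10 (Asc-1), an exchanger of small neutral amino acids that includes D-serine, had 2.46, 2.53 and 2.08 CPM in DMSO and 1.13, 1.30 and 0.815 in oridonin. It fell by 1.11 ± 0.21 on the log2 scale (2.16-fold lower; edgeR adjusted p = 0.000395), and its counts ran from 23 to 72 per library. It shares 6.56% of its exon bases with LRP3 on the other strand, a gene at 89.6 CPM with a log2 fold change of -0.32, and the strand setting of the counting is not given in the sources used here. SLC7A7 (y+LAT1), which lets cationic amino acids out in exchange for neutral ones, had 1.64, 1.12 and 1.46 CPM in DMSO and 2.61, 1.98 and 2.16 in oridonin. It rose by 0.69 ± 0.20 (edgeR adjusted p = 0.011), with no overlap between treatments. That call was lost without DMSO replicate 2 (0.54, edgeR adjusted p = 0.0705), without oridonin replicate 1 (0.57, adjusted p = 0.0639), with DESeq2 (adjusted p = 0.0587) and with limma (adjusted p = 0.0633). SLC7A7 is also expressed in gut, kidney and white blood cells, and any part of such cells in its rise was not tested.

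SLC7A6 (y+LAT2), the broader relative of SLC7A7, rose by 0.18 ± 0.07 (edgeR adjusted p = 0.0417) from 40.0 ± 1.21 to 45.3 ± 4.0 CPM. The call was lost in 7 of 11 other fits, among them those without DMSO replicate 1 (0.19, adjusted p = 0.0639), 2 (0.19, adjusted p = 0.082) or 3 (0.15, adjusted p = 0.0861) and those without oridonin replicate 1 (0.16, adjusted p = 0.133) or 3 (0.13, adjusted p = 0.174). SLC7A6 shares 44.4% of its exon bases with SLC7A6OS on the other strand. SLC7A6OS had 8.63 ± 0.358 CPM in DMSO and 9.62 ± 1.19 in oridonin, with a log2 fold change of 0.16 ± 0.10 that was not called, so the reads of the pair may be mixed. SLC7A9, the light chain of rBAT, had 4.78 ± 0.421 and 3.98 ± 0.292 CPM without overlap, and its log2 fold change of -0.26 ± 0.13 did not pass the test (edgeR adjusted p = 0.122).

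The uniporters of branched-chain amino acids and phenylalanine went in opposite directions. SLC43A1 (LAT3), the more abundant of the pair, had 121, 120 and 128 CPM in DMSO and 89.2, 90.3 and 92.5 in oridonin. It fell by 0.44 ± 0.05 on the log2 scale (1.36-fold lower; edgeR adjusted p = 1.99e-06). SLC43A2 (LAT4) had 28.8, 29.2 and 34.8 CPM in DMSO and 37.4, 36.7 and 41.7 in oridonin, and rose by 0.32 ± 0.08 (edgeR adjusted p = 0.00346). The treatments did not overlap for either gene. Because SLC43A1 held most of the transcript, the summed FPKM of the pair was 37.5 ± 1.96 in DMSO and 29.5 ± 0.906 in oridonin.

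Among the sodium-coupled carriers of small neutral amino acids and glutamine, the most abundant gene rose while 4 less abundant ones were called lower. Of these 4, SLC38A4 was almost silent and was called in only 3 of the 11 other fits. SLC38A2 (SNAT2), the system A carrier that concentrates alanine and glutamine in most cells (chromosome 12, 46358189 to 46372867, minus strand), had 1096, 1164 and 1135 CPM in DMSO and 1362, 1385 and 1272 in oridonin. It rose by 0.24 ± 0.05 on the log2 scale (1.18-fold; edgeR adjusted p = 0.000586), with every oridonin library above every DMSO library. SLC1A5 (ASCT2), the main glutamine exchanger of many tumour lines, had 362, 369 and 423 CPM in DMSO and 385, 372 and 412 in oridonin. The treatments overlapped and the log2 fold change was 0.02 ± 0.06 (edgeR adjusted p = 0.832). SLC38A1 (SNAT1), which shares the substrates of SNAT2, had 358, 356 and 356 CPM in DMSO and 369, 367 and 354 in oridonin, a log2 fold change of 0.03 ± 0.04 that was not called.

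SLC1A4 (ASCT1), an exchanger of alanine, serine and cysteine, was the clearest of the genes that fell in this class. It had 147, 143 and 150 CPM in DMSO and 109, 106 and 105 in oridonin, a fall of 0.46 ± 0.05 on the log2 scale (edgeR adjusted p = 7.16e-07). SLC38A5 (SNAT5), a system N carrier of glutamine, histidine and glycine, had 91.2, 82.9 and 92.2 CPM in DMSO and 65.4, 65.7 and 66.0 in oridonin, and fell by 0.43 ± 0.05 (edgeR adjusted p = 6.58e-06). SLC38A3 (SNAT3), a system N carrier of glutamine known from liver, had 23.7, 22.7 and 23.5 CPM in DMSO and 16.0, 15.6 and 16.5 in oridonin. It fell by 0.53 ± 0.07 (1.45-fold lower; edgeR adjusted p = 8.8e-06). None of these 3 genes overlapped between treatments.

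SLC38A4 (SNAT4), a system A carrier known from liver, was almost silent, at 0.775, 1.16 and 0.913 CPM in DMSO and 0.345, 0.519 and 0.780 in oridonin. The treatments overlapped, with 11 to 33 counts per library. Its fall of 0.82 ± 0.32 on the log2 scale (edgeR adjusted p = 0.0479) was called in 3 of the 11 other fits and lost without DMSO replicate 2 (-0.65) or 3 (-0.86) and without oridonin replicate 1 (-0.57) or 2 (-0.79). SLC38A1, SLC38A2 and SLC38A4 lie in this order on chromosome 12, with 88171 and 391893 bases between them, and their log2 fold changes were 0.03, 0.24 and -0.82. Summed over the class, FPKM was 369 ± 15.7 in DMSO and 394 ± 1.41 in oridonin.

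SLC7A1 and SLC7A2, the CAT carriers of arginine, lysine and ornithine, both fell. Among other carriers that also move cationic amino acids, SLC7A7 and SLC7A6 were called higher and SLC6A14 lower. SLC7A1 (CAT1), the general carrier of cationic amino acids, had 322, 325 and 359 CPM in DMSO and 261, 251 and 258 in oridonin, a fall of 0.39 ± 0.05 on the log2 scale (edgeR adjusted p = 1.25e-05). SLC7A2 (CAT2), whose low-affinity form is typical of liver, had 306, 295 and 279 CPM in DMSO and 167, 159 and 154 in oridonin, a fall of 0.87 ± 0.05 (1.83-fold lower; edgeR adjusted p = 9.16e-10). No library of one treatment reached those of the other for either gene. Per length, SLC7A2 stood at 0.854 ± 0.0850 of SLC7A1 in DMSO and 0.607 ± 0.0221 in oridonin. The summed FPKM of the pair was 80.2 ± 1.85 in DMSO and 53.9 ± 0.942 in oridonin.

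Carriers of glutamate and aspartate were scarce. SLC1A2 (EAAT2), the main glutamate carrier of astrocytes and also a gene of perivenous hepatocytes, had 14.9 ± 1.63 CPM in DMSO and 10.9 ± 1.05 in oridonin. It fell by 0.44 ± 0.10 on the log2 scale without overlap (edgeR adjusted p = 0.00157), a call that limma on log2 FPKM did not make (adjusted p = 0.0527). SLC1A7 (EAAT5), a retinal member, had 1.69 ± 0.128 and 1.70 ± 0.449 CPM and was not called.

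The amino acid carriers of the SLC6 family showed the largest change of any family gene. SLC6A14 (ATB0,+), which uses the sodium and chloride gradients to take up neutral and cationic amino acids (chromosome X, 116436622 to 116461458), had 35.9, 37.5 and 32.9 CPM in DMSO and 8.51, 9.51 and 7.37 in oridonin. It is known from colon and airway epithelium. Any relation of its level to the gut epithelial marker sum given above was not tested. The highest oridonin library lay well below the lowest DMSO library, and the fall was 2.06 ± 0.09 on the log2 scale (4.17-fold lower; edgeR adjusted p = 3.12e-11). Over the 11 other fits its log2 fold change ran from -2.15 to -1.97. SLC6A9 (GlyT1), the glycine carrier that also serves red cell precursors, had 24.0, 24.6 and 28 CPM in DMSO and 14.5, 13.3 and 14 in oridonin. It fell by 0.88 ± 0.08 (1.83-fold lower; edgeR adjusted p = 1.37e-07) without overlap. SLC6A9 shares 7.83% of its exon bases with CCDC24 on the other strand, a gene at 2.98 CPM.

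The creatine carrier fell while the taurine carrier rose, from the same family. SLC6A8, the creatine carrier (chromosome X, 153688099 to 153696593), had 370, 379 and 407 CPM in DMSO and 229, 226 and 236 in oridonin. It fell by 0.74 ± 0.05 on the log2 scale (1.67-fold lower; edgeR adjusted p = 4.16e-09). Its near copy SLC6A10P had 0 to 2 counts per library. SLC6A6, the carrier of taurine and beta-alanine (chromosome 3, 14402576 to 14489349), had 119, 114 and 112 CPM in DMSO and 226, 205 and 213 in oridonin. It rose by 0.90 ± 0.05 (1.87-fold; edgeR adjusted p = 7.38e-10), the largest rise among the family genes. Per length, SLC6A8 stood 5.04 ± 0.369 times as high as SLC6A6 in DMSO and 1.62 ± 0.0800 times in oridonin.

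Of the carriers of GABA and betaine, SLC6A11 fell and SLC6A12 was not called. SLC6A11 (GAT3), known from brain, had 72.5, 69.6 and 69.8 CPM in DMSO and 51.4, 51.1 and 53.9 in oridonin, and fell by 0.44 ± 0.05 on the log2 scale (edgeR adjusted p = 4.36e-06). SLC6A12 (BGT1), which carries betaine and GABA in kidney and liver, had 5.61 ± 0.131 CPM in DMSO and 4.79 ± 0.449 in oridonin. Its values did not overlap, but the log2 fold change of -0.23 ± 0.12 did not pass the test (edgeR adjusted p = 0.131).

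**Figure D5:**
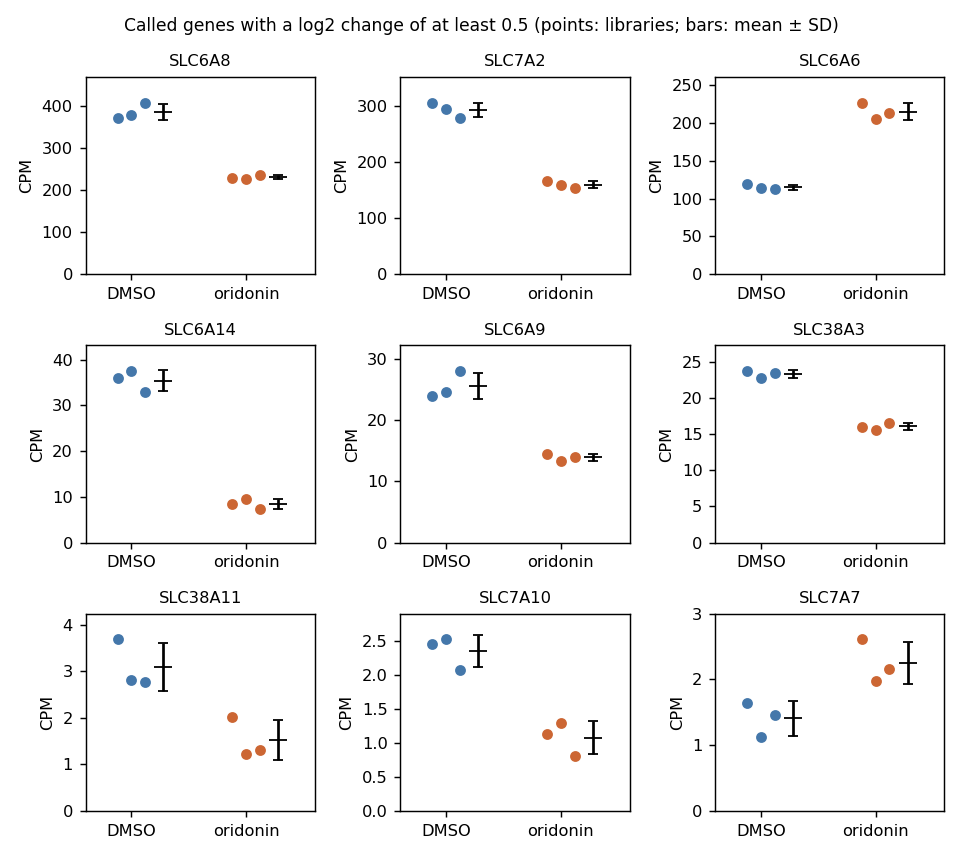
CPM in each library (points; DMSO in blue, oridonin in orange) with the mean and SD beside them, for the 9 called genes that moved by at least 0.5 on the log2 scale and averaged at least 1 CPM in either treatment; each y axis starts at 0. The treatments do not overlap in any of the 9 panels, and SLC6A6 and SLC7A7 are the panels in which oridonin is higher.

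Of the carriers of lysosomes and inner membranes, SLC38A7 and SLC36A1 rose and the other 2 were not called, a share near the 41.9% of all genes tested. SLC38A7 (SNAT7), which releases glutamine from lysosomes, had 48.1, 49.1 and 54.0 CPM in DMSO and 63.1, 60.8 and 66.2 in oridonin. It rose by 0.33 ± 0.06 on the log2 scale (1.26-fold; edgeR adjusted p = 0.000295). SLC36A1 (PAT1), a proton-coupled carrier of small amino acids, had 25.8, 24.8 and 26.8 CPM in DMSO and 33.3, 32.0 and 34.2 in oridonin, and rose by 0.36 ± 0.06 (edgeR adjusted p = 0.000207). Neither gene overlapped between treatments. SLC38A9, the lysosomal arginine sensor of the mTORC1 pathway, had 19.2 ± 2.01 and 17.7 ± 1.54 CPM and was not called. SLC36A4 had 31.9 ± 2.54 and 29.2 ± 1.08 CPM and a log2 fold change of -0.13 ± 0.07 that was not called, though it was without DMSO replicate 3 (-0.19, edgeR adjusted p = 0.0228). The summed FPKM of the 4 genes was 16.3 ± 0.200 in DMSO and 18.9 ± 0.457 in oridonin.

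The less studied SLC38 members were mixed. SLC38A10, the most abundant of them, had 188, 179 and 203 CPM in DMSO and 164, 149 and 171 in oridonin, a fall of 0.24 ± 0.06 on the log2 scale (edgeR adjusted p = 0.00363). SLC38A11 had 3.69, 2.81 and 2.78 CPM in DMSO and 2.01, 1.23 and 1.31 in oridonin, a fall of 1.0 ± 0.21 (2.01-fold lower; edgeR adjusted p = 0.000841). Neither overlapped between treatments. SLC38A6 rose by 0.43 ± 0.13 (edgeR adjusted p = 0.0152) from 4.29 ± 0.389 to 5.78 ± 0.790 CPM, a call lost without DMSO replicate 3 (0.35, adjusted p = 0.0516), without oridonin replicate 2 (0.31, adjusted p = 0.0963), with DESeq2 (adjusted p = 0.0602) and with limma (adjusted p = 0.0651). It shares 4.76% of its exon bases with TRMT5 on the other strand, a gene at 20.7 CPM with a log2 fold change of 0.19.

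The carriers of other cargo and the orphan SLC6A16 stayed low and uncalled. SLC6A4 had 3.16 ± 0.325 CPM in DMSO and 3.23 ± 0.213 in oridonin, and SLC6A2 had 1.64 ± 0.0771 and 1.51 ± 0.295. SLC43A3 had 0.413 ± 0.129 and 0.273 ± 0.131 CPM, and SLC6A16 had 0.330 ± 0.0653 and 0.321 ± 0.140. Each of these 4 genes overlapped between treatments.

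Among carriers of amino acids in other families 33.3% were called, and among the proteins that handle carriers 66.7%, against 41.9% of all genes tested. Of 12 tested carriers outside these families, 3 were called higher and 1 lower, and the median of their log2 fold changes was 0.21. Higher were SLC66A1, which exports cationic amino acids from lysosomes (0.52 ± 0.07), MFSD12, which brings cysteine into them (0.53 ± 0.10), and SLC22A4, an ergothioneine carrier (0.69 ± 0.20). Lower was SLC15A3, a peptide and histidine carrier of endosomes (-0.93 ± 0.28). Of 21 tested partners and regulators of carrier traffic, 7 passed in each direction, around a median of -0.03. TXNIP, an arrestin that draws glucose carriers off the surface, fell by 0.89 ± 0.05 on the log2 scale. WNK1, a kinase of cell volume control, fell by 0.48 ± 0.05, and NEDD4L, a ubiquitin ligase, by 0.37 ± 0.05. ARRDC3, another arrestin, rose by 0.99 ± 0.09, SGK2, a kinase, by 0.87 ± 0.08, and ARL6IP5, which restrains glutamate carriers, by 0.49 ± 0.06.

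Among genes that sense amino acids, 42.1% were called, near the 41.9% of all genes tested, and among genes that answer amino acid shortage 71.4% were. Of 38 tested genes of amino acid sensing and mTORC1, 13 were called higher and 3 lower, around a median log2 fold change of 0.08. Over all genes tested 20.6% were called higher and 21.3% lower, so the calls of this list leaned to the higher direction. FLCN, which acts on the Rag GTPases, rose by 0.38 ± 0.06, LAMTOR3, of the lysosomal anchor of the Rags, by 0.30 ± 0.06, and RRAGD, a Rag GTPase, by 0.81 ± 0.18. EIF4EBP1, the translation repressor that mTORC1 phosphorylates, fell by 0.44 ± 0.06. Of 21 tested genes of the amino acid starvation response, 12 were called lower and 3 higher, around a median of -0.44. ATF4 fell by 0.52 ± 0.05 from 639 to 447 CPM, ASNS, the asparagine synthetase, by 0.58 ± 0.05, and DDIT4, an inhibitor of mTORC1, by 0.84 ± 0.06. EIF2S1, the initiation factor subunit whose phosphorylation starts the response, rose by 0.21 ± 0.05. SLC38A2, a known target of ATF4, rose. Of other known targets among the carriers, SLC7A5, SLC7A1 and SLC1A4 fell and SLC3A2 was not called. These are not all of its known targets, and any part of ATF4 in the changes was not tested.

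Among enzymes that use the carried amino acids, 57.6% were called. Of 33 tested enzymes of glutamine, glutamate, proline, branched-chain amino acid, arginine, creatine and taurine use, 17 were called lower and 2 higher, around a median log2 fold change of -0.22. ASNS stands in this list as well as in the starvation list. CKB, the brain-type creatine kinase, fell by 1.05 ± 0.05, from 653 to 316 CPM, beside the fall of the creatine carrier SLC6A8. GLUD1, the mitochondrial glutamate dehydrogenase, fell by 0.92 ± 0.05, and ASS1, which makes argininosuccinate, by 1.14 ± 0.06. PRODH, the first enzyme of proline breakdown, rose by 1.30 ± 0.31 from 0.379 to 0.930 CPM. All these lists were chosen with earlier results of these data known, and their counts are a description beside the share of all genes given above.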

How the data were processed

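Raw read counts per gene were used as deposited by the authors for 60504 Ensembl genes, and log2 FPKM values as deposited by the authors for 18404 genes, those counted at least 1 time in every library. The submitters' processing notes name hg38 as the build and DESeq2 1.10.1 as a tool. Aligner, counter and strandedness: not given in the sources used here; thus reads of overlapping genes cannot be told apart. Counts were tested over 15116 genes with edgeR 4.0.16 in R 4.3.3 (quasi-likelihood, robust, filterByExpr defaults, TMM scaling, treatment as the only term). CPM is scaled by TMM, FPKM is 2 to the power of the deposited log2 value, and means carry the SD over 3 libraries. The procedure was tested on simulated data. Alternatives were DESeq2 1.42.0, limma 3.58.1, total-count scaling, no filter, a replicate block, a stricter threshold, each library left out, and SLC7A6OS left out. The members and lists were chosen with earlier results of these data known. Genes were given by library where called with a log2 fold change of at least 0.5 and at least 1 CPM, or among the 12 of highest FPKM; values by library of other genes were added after they were seen. From each list, up to 3 called genes of the smallest p in the commoner direction (both directions where the counts tied) and 1 in the other were named; others were chosen after their values were seen. Coordinates of genes are those of the authors' files.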

Additional observations from a re-analysis of the deposited data

How the results depend on the processing

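The count of carrier genes called higher, 8, was 5 with DESeq2, 5 with limma on log2 FPKM and 5 at an adjusted p under 0.01; with each library left out in turn it ran from 6 to 7. The count called lower, 16, ran from 14 to 16 over all alternatives. With the replicate block, 8 were called higher and 16 lower. The main fit did not pair the libraries by replicate number, since the labels give treatment as the only factor. Deviations of same-numbered libraries correlated at 0.19, 0.065 and 0.17, and those of other pairs at -0.16 to 0.0073. Each library thus correlated best with its own number, and whether the numbers mark a shared batch was not tested. The block called 7689 of all genes against 6332. Only uncalled genes changed sign. SLC3A2 (-0.000256) was at 0.080 with total counts, 0.0166 with no filter, 0.000968 with the replicate block and 0.0133 with limma, and from -0.0462 to 0.047 with a library left out. With a library left out SLC1A5 ran from -0.0281 to 0.0903, SLC6A4 from -0.0422 to 0.105, SLC1A7 from -0.208 to 0.168, SLC6A2 from -0.274 to 0.0163 and SLC6A16 from -0.295 to 0.259. SLC1A7 was at 0.0745 with total counts and 0.0106 with no filter, and SLC6A16 at 0.0189 with total counts. The cause was not tested. Counts of 5 to 15 per library limit SLC6A16 and SLC43A3.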
